A study of Nannospalax ehrenbergi and Mus musculus with 25 samples.

Results

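The 10 genes described here carry the calcium cycle of skeletal muscle fibers. They comprise the voltage sensor Cacna1s, the calcium release channel Ryr1, the store proteins Casq1, Casq2 and Srl, the reuptake pumps Atp2a1 and Atp2a2, the pump inhibitors Sln and Pln, and the cytosolic calcium buffer Pvalb. They were chosen by symbol, as genes of a known pathway, with earlier results of these libraries in view, among them the extreme values of Sln and Pvalb. All 10 symbols were found in both tables, out of 27988 genes in the Spalax table and 47593 in the mouse table.

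A muscle fiber contracts when the voltage sensor in its surface tubules opens the release channel of the sarcoplasmic reticulum, and it relaxes when the pumps return calcium to that store. Fast and slow fibers use different members of the same families: Atp2a1, Casq1 and Pvalb are typical of fast fibers, while Atp2a2 and Casq2 are typical of slow fibers and the heart. A form of Atp2a2 is also made in nearly all other cell types, where it fills the endoplasmic reticulum. Sln and Pln are very small membrane proteins that bind the pumps and slow them.

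RNA of muscle or tumor from the neck was sequenced in the blind mole rat Spalax, a long-lived burrowing rodent caught in the wild, and in C57BL/6 mice. Animals received a single injection of 3-methylcholanthrene (3MCA), a carcinogen that induces sarcomas, of 1 mg in Spalax and 200 µg in mice, under the skin of the left neck flank. In animals with a tumor, IS (injected side) stands for the tumor itself and UIS for the opposite, uninjected neck. Spalax gave 16 libraries: 4 of untreated control muscle (all females), 4 of tolerant animals (injected, no tumor; 3 males and 1 female, at 18 or 30 months), and pairs of libraries for the UIS and the IS of granuloma (2 females, at 14 and 16 months) and of fibrosarcoma (a female at 18 months and a male at 30 months). The tolerant muscle was also taken from the injected side. Mouse gave 9 libraries of males: 3 of untreated control muscle, and the UIS and the IS of 3 mice with fibrosarcoma, at 11, 12 and 14 weeks. The mice were 3 to 4 months old, and the age of the treated Spalax, which cannot be known exactly for animals caught in the field, was estimated at 2 to over 10 years. Libraries are named by their animal numbers. Levels are normalised read counts, that is reads divided by 1 size factor per library. Each species has its own table, with its own scaling and gene models, and levels are therefore set side by side across species without a test.

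The libraries rest on 17025447 to 31179183 reads. Muscle content, the sum over Ckm, Acta1, Ttn, Mb and Des, lay between 798741 and 2263221 in the 12 Spalax muscle libraries and between 555134 and 1510082 in the 6 mouse muscle libraries. In the tumors it was 222 to 6668 in Spalax and 206 to 65379 in mouse, while the fibroblast markers Col1a1, Col3a1, Pdgfra and Dcn summed to 55671 to 1494261 and 97785 to 117587. Fewer muscle fibers in a sample and less RNA per fiber cannot be told apart in such bulk tissue. Some muscle libraries stood apart from the others of their kind. Granuloma UIS 976 had 388475 of summed fast fiber markers against at least 698239 in the other UIS libraries of Spalax, and its sequencing name in the labels carries the number 979 instead of 976. UIS 2230 held 18052 of brown fat markers against at most 91.1 in the other muscle libraries of Spalax. Tolerant 2251 had a fibroblast sum of 143567 against at most 35259 in the other tolerant libraries. The mouse library UIS 512 had a slow fiber sum of 3677 against at least 17499.8 in the other muscle libraries of mouse, and 17.3 of brown fat markers against at least 12520.3. By the index sequences in the labels, control and tolerant libraries carried dual indices and those of tumor-bearing animals single ones, so that index and group cannot be told apart in comparisons of control with UIS.

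The coding sequences of the 2 pump inhibitors are shown because the medians of these genes over muscle libraries were furthest apart between the species' tables (26478 and 126 for Sln, 4.26 and 151 for Pln, Spalax first). They were read from the mouse annotation (GENCODE vM21, GRCm38). Sln lies at chr9:53850164-53854560 on the + strand and Pln at chr10:53337667-53345987 on the + strand. Sln encodes 31 residues in 96 bases and Pln 52 residues in 159 bases, stop codon included. Capitals mark the longest run of bases that both share, 8 bases long.
Sln: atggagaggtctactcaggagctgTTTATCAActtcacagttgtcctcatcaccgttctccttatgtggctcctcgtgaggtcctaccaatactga
Pln: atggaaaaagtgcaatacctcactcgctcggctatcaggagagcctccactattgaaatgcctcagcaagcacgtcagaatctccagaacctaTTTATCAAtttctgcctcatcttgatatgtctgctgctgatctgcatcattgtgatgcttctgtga

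Sln was read at 18684 or more normalised counts in every Spalax muscle library, and Pln was near the limit of detection there. The normalised read count of Sln was 41499.6, 20682, 58329 and 20701 in the control libraries 1042, 1075, 2095 and 6038. It was 18684, 53332, 27364 and 35498 in the tolerant libraries 2251, 2261, 2218 and 2375, and 22841, 23352, 25592 and 31376 in the UIS libraries 600, 976, 2240 and 2230. The 3 groups overlapped, and the spread of the control libraries alone covered most of the range. Pln in the same libraries was 2.21, 13.5, 4.99 and 13.9 in control, 2.25, 8.76, 6.61 and 8.04 in tolerant, and 0, 3.53, 0 and 2.84 in UIS. A value of 0 allows up to 3.62 in UIS 600 and 3.64 in UIS 2240, the worth of 3 reads, and covers counting error only. Pln therefore failed the minimum of 10 in every Spalax comparison and was not tested.

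In mouse muscle both inhibitors were detected in every library. Sln was 583, 74.3 and 68.8 in the control mice M1, M2 and M5 and 236, 146 and 107 in UIS 1019, 1023 and 512. Pln was 193, 117 and 153 in control and 199.5, 149.5 and 64.8 in UIS. Control M1 held the highest Sln value, far above the other 5 libraries, and both groups overlapped for both genes. Per kilobase of annotated exon, Sln in mouse control was 184 ± 224 (SD, n = 3) and Pln 55.9 ± 13.9 (SD, n = 3). On the same scale Atp2a1, the pump that both can bind, was at 67945 ± 4974 (SD, n = 3) and Atp2a2 at 2256 ± 650.5 (SD, n = 3). Of the exon bases of Pln, 64.7% lie opposite exons of other genes (Cep85l and Gm47644), and it is not known whether strand was used in the counting, so reads of these genes may not be told apart.

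**Figure D1:**
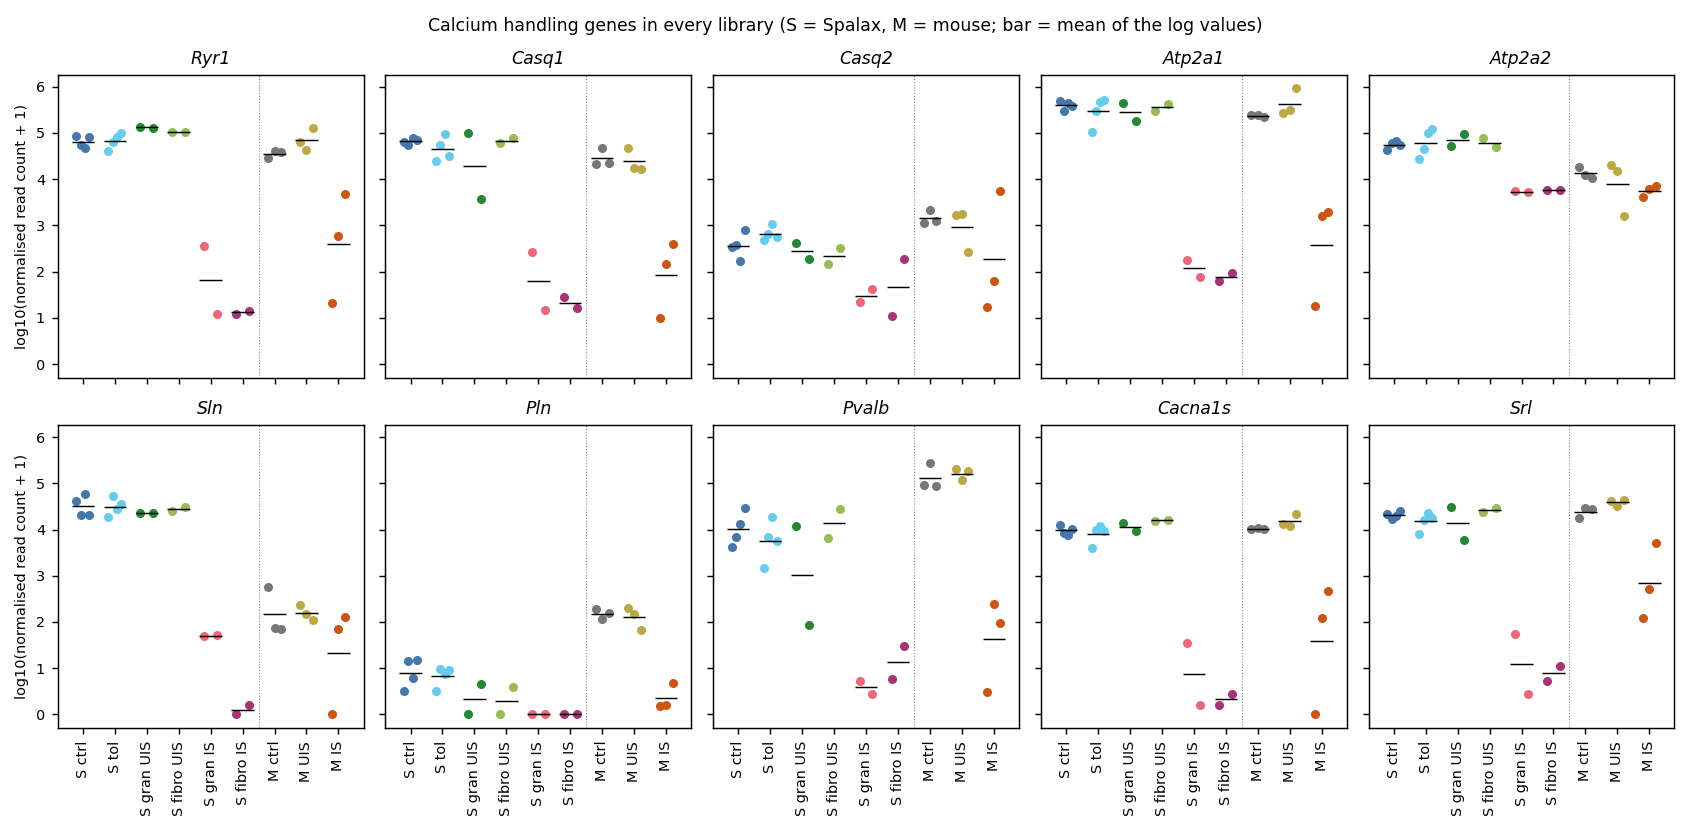
Normalised read counts of the 10 genes in every library, as log10(value + 1), by group. Points are libraries and bars the mean of the log values. Sln fills 18684 to 58329 in Spalax muscle and 68.8 to 583 in mouse muscle, and Atp2a2 lies between 4153 and 7081 in all 7 tumors.

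In the tumors Sln differed between granuloma and fibrosarcoma of Spalax. Granuloma IS 600 and 976 held 48.6 and 50.8 normalised counts of Sln. Fibrosarcoma IS 2240 held none, which allows up to 1.84, and fibrosarcoma IS 2230 held 0.6, a single read. The Spalax fibrosarcomas thus rested on 1 read of Sln in all, and the ratio of the mean in UIS to that in IS was 95000, with a 95% counting interval of 16800 to 3710000. Granuloma UIS exceeded IS by 465-fold. In mouse, Sln was 0, 69.4 and 128 in IS 1019, 1023 and 512, where 0 allows up to 1.55, so that IS 512 lay above UIS 512 at 107. Pln in mouse tumors was 0.517, 0.593 and 3.68, below every muscle library. On the log2(value + 1) scale the change of Sln from UIS to IS, as limma estimated it, was -8.83 ± 0.31 (SE) in granuloma, -14.45 ± 0.40 (SE) in Spalax fibrosarcoma and -2.90 ± 1.78 (SE) in mouse. That of Pln in mouse was -5.81 ± 0.69 (SE). Since the members were chosen with these contrasts known, such changes are descriptions and carry no test here.

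The log2 change of Sln in Spalax fibrosarcoma minus that in mouse was -11.56 ± 2.42 (SE). Sln was known for this contrast when the members were chosen, so the value is a description. On this scale a fall to 0 from the UIS levels amounts to 6.75 to 7.89 in the 3 mice and 14.64 and 14.94 in Spalax 2240 and 2230. The room for a fall therefore differed between the species. At an adjusted p of at most 0.05, at which 3.95% of the 11262 genes tested were called (2.02% higher and 1.94% lower), Sln was called and the other members were not. The difference ranged from -15.18 to -9.64 over all alternatives. The call was lost with the animal as a block, without both libraries of mouse 512, and in 9 of the 10 fits that left out 1 library, being kept without mouse IS 1019. The other 8 members tested differed by -5.92 (Srl) to 1.94 (Pvalb).

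Between the 2 kinds of Spalax tumor, Sln read lower in fibrosarcoma than in granuloma IS, with a log2 difference of -5.32 ± 0.96 (SE). The libraries did not overlap, as was so for 31.4% of all genes. By limma the unadjusted p was 0.00305 and the adjusted p was 1, and 0 of 7 members tested were called (0% of 14562 genes), with 1 member at an unadjusted p under 0.05. On the recovered reads edgeR called 0 members, and the Wald test of DESeq2 called Sln (log2 difference -7.39 ± 1.79 SE, adjusted p = 0.00701). With 1 limma model over all 16 Spalax libraries, whose spread then includes that of muscle, Sln was called too (adjusted p = 0.000342). Each group held 2 libraries. The contrasts known when the members were chosen used these same IS values of Sln, so the p-values here are descriptions.

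The pumps differed in how low they read in the tumors. Atp2a1, which fast fibers use to reload their store, nearly disappeared. Atp2a2 was also lower in the Spalax tumors than in muscle, and it lay at a narrow level. Atp2a1 ranged from 105348 to 517713 in the 12 Spalax muscle libraries. In the tumors it was 179 and 76.7 in granuloma IS 600 and 976 and 62.1 and 94.1 in fibrosarcoma IS 2240 and 2230. In mouse it was 246591, 245862 and 216280 in control, 274656, 312358 and 925332 in UIS 1019, 1023 and 512, and 17.1, 1588 and 1973 in the IS libraries of the same animals. UIS 512 thus held the highest level of the mouse libraries. The log2 change from UIS to IS was -11.24 ± 0.64 (SE) in granuloma, -12.19 ± 0.34 (SE) in Spalax fibrosarcoma and -10.13 ± 1.79 (SE) in mouse. The mouse gene lies at chr7:126445858-126463108 on the - strand, and 21.94% of its exon bases are opposite exons of Rabep2.

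Atp2a2 was 42026, 61236, 68562 and 56046 in the Spalax control libraries, 27879, 44026, 101069.7 and 120169.9 in tolerant 2251, 2261, 2218 and 2375, and 51847, 93661, 77961 and 48899 in UIS 600, 976, 2240 and 2230. The 4 Spalax tumors read 5563, 5203, 5826 and 5894, so that granuloma and fibrosarcoma differed by 0.12 ± 0.31 (SE) on the log2 scale (limma adjusted p = 1). The mean in UIS was 13.5-fold that of IS in granuloma and 10.8-fold in fibrosarcoma. The mouse tumors lay at a similar value of their own table, 4153, 6032 and 7081 in IS 1019, 1023 and 512. Mouse muscle held 18179, 12355 and 10630 in control and 20145, 14935 and 1637 in UIS 1019, 1023 and 512. UIS 512 fell below its own tumor, and with both libraries of that mouse in the fit the log2 change was -0.49 ± 0.93 (SE), which was not called and turned to 0.58 when libraries were scaled by total reads. Without the 2 libraries of mouse 512 it was -1.79 ± 0.29 (SE), and Atp2a2 was then called. The mouse gene lies at chr5:122453513-122502225 on the - strand.

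The log2 ratio of Atp2a1 to Atp2a2, not scaled by gene length, was compared only between libraries of the same species. Spalax control libraries averaged 2.82 ± 0.54 (SD, n = 4). Tolerant libraries averaged 2.25 ± 0.36 (SD, n = 4), and tumor-bearing UIS 2.29 ± 1.05 (SD, n = 4), where UIS 976 was lowest at 0.95. Mouse control was at 4.14 ± 0.33 (SD, n = 3) and mouse UIS at 5.77 ± 2.94 (SD, n = 3), the latter made of 3.77, 4.39 and, in UIS 512, 9.14. In all 7 tumors the ratio was below 0, from -7.85 to -1.84. Over the 6 ratio tests none passed: tolerant differed from Spalax control by -0.57 (exact two-sided permutation p = 0.114, adjusted p = 0.343), UIS from Spalax control by -0.52 (exact permutation p = 0.486, adjusted p = 0.729) and mouse UIS from control by 1.62 (exact permutation p = 0.4, adjusted p = 0.729). The mouse difference rested on UIS 512 and was -0.06 without it. The smallest p possible was 0.0286 with 4 against 4 libraries and 0.1 with 3 against 3. The mouse tests therefore could not pass, and 1 Spalax test at its smallest p could not pass alone. Casq1 to Casq2 in tolerant was at that permutation p and had an adjusted p of 0.171.

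**Figure D2:**
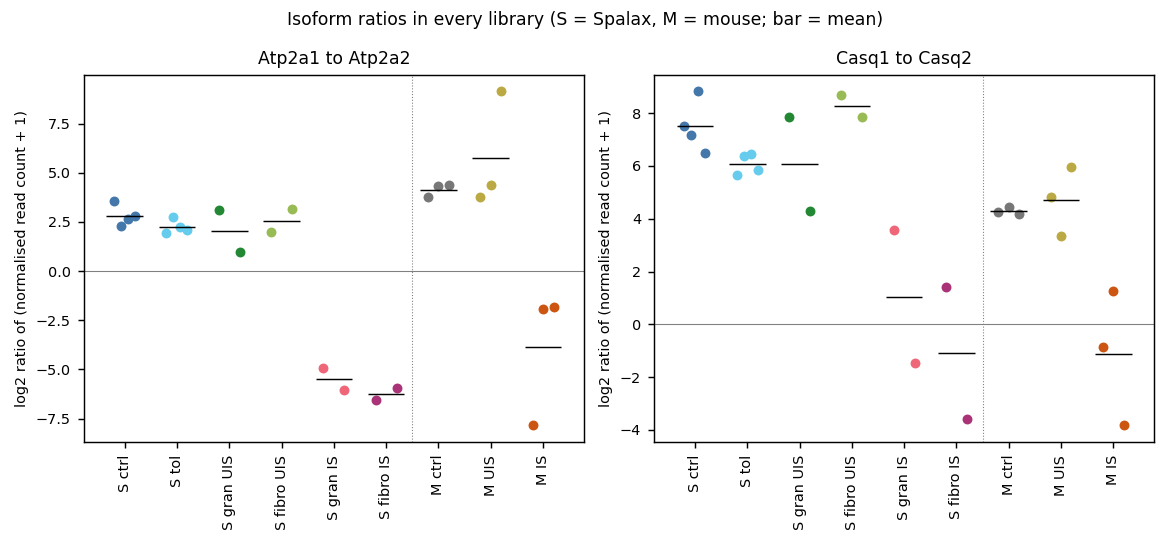
Log2 ratios of Atp2a1 to Atp2a2 and of Casq1 to Casq2, with 1 added to each normalised read count, in every library by group. Points are libraries and bars means. The first ratio is above 0 in all 18 muscle libraries and between -7.85 and -1.84 in the 7 tumors, and the tolerant libraries lie between 5.67 and 6.47 for the second.

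Calsequestrins hold calcium inside the store, Casq1 in fast fibers and Casq2 in slow fibers and the heart. Casq1 was 62989, 54163, 78942 and 71567 in Spalax control, 24438, 54110.3, 93054 and 32169 in tolerant 2251, 2261, 2218 and 2375, and 97820.4, 3733, 60266 and 76268 in UIS 600, 976, 2240 and 2230. The value of 3733 in UIS 976 was the lowest of the Spalax muscle libraries. Casq2 read 348, 372, 172 and 792 in control, 477, 644, 1047 and 566 in tolerant, and 423, 187, 144 and 328 in UIS. Tolerant libraries tended to the upper part of this range, although the groups overlapped through control 6038. The log2 change of Casq2 from control to tolerant was 0.84 ± 0.43 (SE, limma adjusted p = 0.923).

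The log2 ratio of Casq1 to Casq2, not scaled by length, was 7.50 ± 0.98 (SD, n = 4) in control and 6.09 ± 0.40 (SD, n = 4) in tolerant, and no tolerant library reached the lowest control at 6.50. The difference of -1.41 had an exact permutation p of 0.0286, the smallest that 4 against 4 libraries allow, and an adjusted p of 0.171 over the 6 ratio tests. UIS differed from control by -0.32 (exact permutation p = 0.857, adjusted p = 0.857), which turned to 0.63 without UIS 976 and to 0.12 without control 2095. In mouse the difference was 0.41 (exact permutation p = 0.7, adjusted p = 0.84) and -0.22 without UIS 512.

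In the tumors Casq1 was at 259 and 13.9 in granuloma IS 600 and 976, at 27.7 and 15.0 in fibrosarcoma IS 2240 and 2230, and at 8.79, 148 and 398 in mouse IS 1019, 1023 and 512. Casq2 did not follow in every animal. In fibrosarcoma 2230 it was 191 in IS against 328 in UIS, while 2240 had 9.84 against 144, and the granulomas had 21.1 and 40.5 against 423 and 187. In mouse, IS 1019 and 1023 held 16.5 and 61.7 against 1671 and 1758 in UIS, but IS 512 held 5678, above all 6 muscle libraries of mouse (268 to 2159). The same tumor held 65379 of muscle content and 11718 of slow fiber markers, the most of the 3 mouse tumors, and 22099 of smooth muscle markers against at most 4491 in the others. Their part in the Casq2 value was not tested. The log2 change of Casq2 was -3.22 ± 0.71 (SE) in granuloma, -2.26 ± 1.49 (SE) in Spalax fibrosarcoma and -2.33 ± 2.10 (SE) in mouse. The last 2 were not called, and edgeR and DESeq2 gave the mouse change the other sign (0.64 and 0.58), whereas without mouse 512 it was -5.69 ± 0.67 (SE) and called. In the mouse genome Casq1 lies at chr1:172209894-172219868 on the - strand and Casq2 at chr3:102086415-102146514 on the + strand.

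Srl encodes sarcalumenin, a calcium-binding glycoprotein of the store. Its level lay between 6035 and 31060.4 in Spalax muscle, with UIS 976 and tolerant 2251 (8077) at the bottom. Spalax tumors held 54.4, 1.81, 4.30 and 10.2 in granuloma IS 600 and 976 and fibrosarcoma IS 2240 and 2230. Mouse tumors kept more, at 124, 510.1 and 5034 in IS 1019, 1023 and 512, against 41719, 32669 and 44234 in UIS. Relative to the muscle content of the same library, Srl was at a log2 ratio of -0.73, -4.86 and -3.70 in mouse IS 1019, 1023 and 512, against -5.40 to -4.48 in mouse muscle. It was at -7.45 to -6.31 in the Spalax tumors, against -7.10 to -6.06 in Spalax muscle. The mouse gene lies at chr16:4480216-4541816 on the - strand.

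Pvalb, the parvalbumin that binds calcium in the cytosol of fast fibers, had a wide spread in Spalax muscle. It read 4217, 6869, 12956 and 28558 in control 1042, 1075, 2095 and 6038, 1467, 6758, 18858 and 5787 in tolerant 2251, 2261, 2218 and 2375, and 12051, 86, 6725 and 27185 in UIS 600, 976, 2240 and 2230. The groups overlapped fully, and UIS 976 was again the lowest library. Mouse muscle ranged from 89326 to 276972, in another table. Per kilobase of exon it had the highest mean of the members in mouse control, at 146714 ± 103366 (SD, n = 3). Tumors held 4.36 and 1.81 in granuloma IS, 4.92 and 29.4 in fibrosarcoma IS 2240 and 2230, and 2.07, 249 and 96.3 in mouse IS 1019, 1023 and 512. The log2 change was -8.04 ± 2.27 (SE) in granuloma, -9.98 ± 1.06 (SE) in Spalax fibrosarcoma and -11.92 ± 1.53 (SE) in mouse. In granuloma it was not called. All IS values lay below all UIS values there, where 69.8% of all genes tested did not overlap in either direction. With the animal as a block the granuloma change was called. The mouse gene lies at chr15:78191114-78206400 on the - strand.

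Ryr1 and Cacna1s, the release channel and its voltage sensor, had higher means in UIS than in control muscle of both species, and neither was called by limma. Ryr1 was 84800.3, 55455, 46450.4 and 83044 in control 1042, 1075, 2095 and 6038, and 136991, 131258, 104197 and 102837 in UIS 600, 976, 2240 and 2230. Every UIS library exceeded every control library. Ryr1 was the only 1 of the 9 members tested to be apart in this way, beside 12.7% of all genes in either direction. The log2 change was 0.85 ± 0.32 (SE), with a limma adjusted p of 0.253 and an unadjusted p of 0.0256, and 0.80 without UIS 976 (adjusted p = 0.237). DESeq2 on recovered reads called it (0.84 ± 0.27 SE, adjusted p = 0.0492), and the adjusted p was between 0.221 and 0.615 in all other fits. Tolerant muscle, at 40537, 64728, 82767 and 99969 in 2251, 2261, 2218 and 2375, spanned the range of control (log2 change 0.06 ± 0.46 SE, limma adjusted p = 0.992).

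Cacna1s was 12348, 8631, 7769 and 10314 in Spalax control and 14178, 9529, 15080.1 and 16358 in UIS 600, 976, 2240 and 2230. Only UIS 976 lay within the control range, and the log2 change of 0.49 ± 0.24 (SE) did not pass (limma adjusted p = 0.335). Mouse UIS also exceeded mouse control in every library for both genes, where 21.2% of all genes were apart in either direction. Ryr1 was 29017, 41511 and 38175 in M1, M2 and M5 against 63666, 42678 and 125525 in UIS 1019, 1023 and 512 (log2 change 0.96 ± 0.47 SE, limma adjusted p = 0.479). Cacna1s was 10089, 10702 and 10069.7 against 13255, 11736 and 21623 (0.54 ± 0.31 SE, limma adjusted p = 0.505). Relative to the muscle content of the same library, mouse control and UIS overlapped. The log2 ratios were -4.91 to -4.04 and -4.46 to -3.59 for Ryr1, and -6.87 to -5.78 and -6.73 to -6.13 for Cacna1s. In Spalax they were -5.53 to -4.43 in control and -4.31 to -2.66 in UIS for Ryr1. For Cacna1s they were -8.11 to -7.28 and -7.19 to -6.45. These ratios were not tested. In the mouse genome Ryr1 lies at chr7:29003344-29125179 on the - strand and Cacna1s at chr1:136052750-136119822 on the + strand, with 19.98% of the exon bases of the latter opposite another gene.

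In the tumors Ryr1 was 364 and 10.9 in granuloma IS 600 and 976, 11.1 and 13.2 in fibrosarcoma IS 2240 and 2230, and 20.2, 592 and 4782 in mouse IS 1019, 1023 and 512. Cacna1s was at 33.4 and 0.604 in granuloma, 0.615 and 1.80 in Spalax fibrosarcoma and 0, 119 and 475 in mouse, where 0 allows up to 1.55. The order of the 3 mouse tumors was the same for both genes as for muscle content (206, 14831 and 65379). The log2 change of Ryr1 was -10.99 ± 1.54 (SE) in granuloma, -12.95 ± 0.22 (SE) in Spalax fibrosarcoma and -7.48 ± 1.82 (SE) in mouse.

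Over the whole set, the comparison of control with the other muscle asked whether tissue away from the tumor, or muscle that stayed tumor-free after injection, differed from untreated muscle. By limma 0 of 9 members tested were called between Spalax control and UIS (0% of 13909 genes), with 1 member, Ryr1, at an unadjusted p under 0.05. None of 9 was called between control and tolerant (0% of 14020 genes; 0 members at an unadjusted p under 0.05), and none of 10 between mouse control and UIS (0% of 14792 genes; 0 members). edgeR called 0 members in all 3, and DESeq2 called 1, 0 and 0 among 516, 60 and 342 genes. The median log2 change of the members tested was -0.30, -0.26 and 0.20, beside -0.03, -0.03 and -0.02 over all genes. Without UIS 976, whose sequencing name carries another number, the log2 change from Spalax control turned from -0.88 to 0.21 for Casq1, from -1.45 to 0.35 for Pvalb and from -0.09 to 0.47 for Srl, again with none called. In mouse, 4 members (Ryr1, Atp2a1, Cacna1s and Srl) were higher in all UIS than in all control libraries, while 21.2% of all genes did not overlap. Scaling by total reads shifted the median of all genes in this comparison to -0.29. Both Spalax comparisons share the 4 control libraries.

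**Figure D3:**
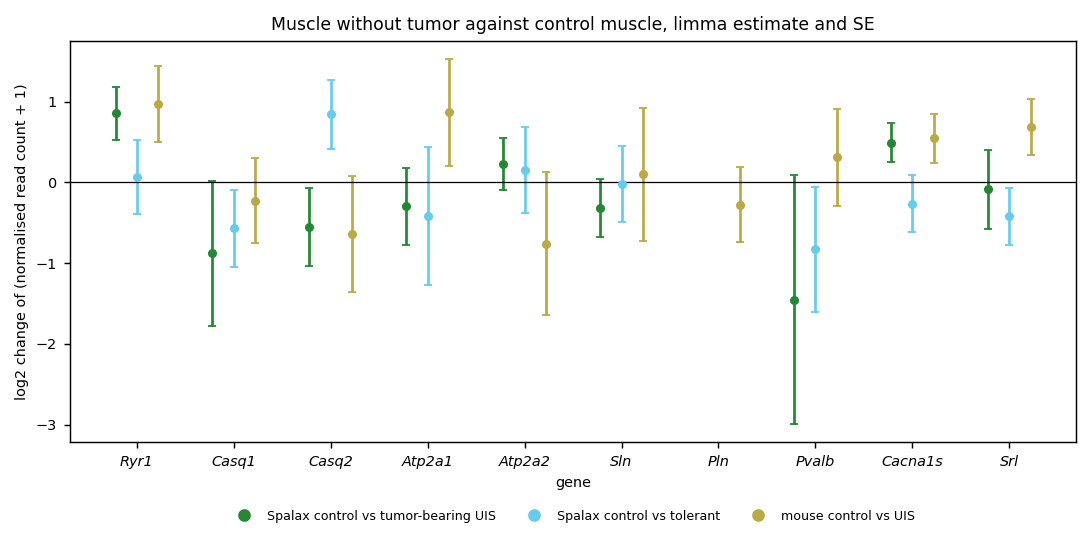
Log2 change of each gene between control muscle and other muscle without tumor, with the SE of limma. Points above 0 are higher in tumor-bearing UIS, tolerant or mouse UIS than in the control of the same species. Ryr1 stands at 0.85 and 0.96 in the UIS comparisons of Spalax and mouse. Pln has a value in mouse only.

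The comparison of IS with UIS asked how the tumor differed from muscle of the same animals, whose pairing the main fit did not use. In granuloma 8 of the 9 members tested were called, all lower in IS, where 24.3% of all 14735 genes tested were called. In Spalax fibrosarcoma it was 8 of 9, all lower, where 36.3% of 14696 were called, and in mouse 7 of 10, all lower, where 45.1% of 15220 were called. These contrasts were known when the members were chosen, so the counts are descriptions. The members not called were Pvalb in granuloma, Casq2 in Spalax fibrosarcoma, and Casq2, Atp2a2 and Sln in mouse. The median log2 change of the members tested was -8.83, -11.76 and -6.66, beside -0.01, 0.03 and 0.11 over all genes tested. Scaled by total reads, the median over all genes rose to 0.72, 0.83 and 1.16, and every called member kept its lower direction, with 7, 8 and 7 called (Casq2 in granuloma was lost). In granuloma and Spalax fibrosarcoma the count depended on single libraries, as leaving out 1 left 1 in a group. Calls over all genes shifted in these fits too. Every member tested stayed lower in them, with Casq2 at -3.81 to -2.64 in granuloma and -4.34 to -0.19 in Spalax fibrosarcoma. With both libraries of mouse 512 left out, 9 members were called in mouse, all but Sln.

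**Figure D4:**
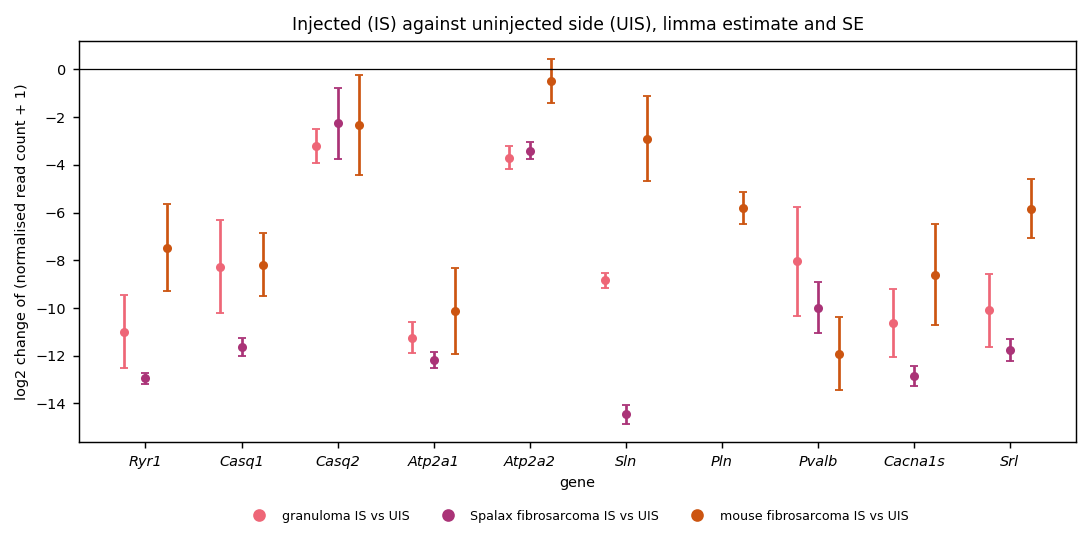
Log2 change of each gene from UIS to IS in granuloma, Spalax fibrosarcoma and mouse fibrosarcoma, with the SE of limma. All points lie below 0, from -14.45 for Sln in Spalax fibrosarcoma to -0.49 for Atp2a2 in mouse. Pln was testable in mouse only.

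Muscle content moved with these changes, and how much of them it carries was not tested. The log2 ratio of Ryr1 to muscle content was -5.53 to -2.66 in Spalax muscle, -4.19 and -4.23 in granuloma IS 600 and 976, and -6.26 and -6.43 in fibrosarcoma IS 2240 and 2230. That of Cacna1s was -8.11 to -6.45 in muscle, -7.60 and -7.12 in granuloma IS and -9.17 and -8.77 in fibrosarcoma IS. For both genes the granulomas lay within the range of muscle and the fibrosarcomas below it. In mouse, Ryr1 was at -4.64 to -3.29 in IS and -4.91 to -3.59 in muscle. Mouse Cacna1s was at -7.69 to -6.95 in IS against -6.87 to -5.78 in muscle. Mouse Atp2a1 was at -5.05 to -3.22 in IS against -2.36 to -0.71, and mouse Atp2a2 at -3.21 to 4.33 against -9.85 to -4.93. In Spalax, Casq1 was at -4.68 and -3.91 in granuloma IS 600 and 976 and at -5.02 and -6.25 in fibrosarcoma IS 2240 and 2230. Its muscle range was -7.80 to -4.41, where -7.80 was UIS 976 and the next lowest library, tolerant 2375, was at -5.57. Atp2a1 was at -5.21 and -1.52 in granuloma IS 600 and 976 and at -3.88 and -3.68 in fibrosarcoma IS. Its muscle range was -2.92 to -1.56. Atp2a2 went from -5.62 to -3.15 in muscle to -0.26 and 4.54 in granuloma IS 600 and 976 and to 2.65 and 2.27 in fibrosarcoma IS 2240 and 2230. Sln moved in both directions, from -6.50 to -4.92 in muscle to -7.07 and -2.11 in granuloma IS 600 and 976 and to -9.86 and -9.58 in fibrosarcoma IS 2240 and 2230. Casq2 lay above its muscle range of -13.67 to -10.71 in every Spalax tumor. It was at -8.24 and -2.43 in granuloma IS 600 and 976 and at -6.42 and -2.67 in fibrosarcoma IS 2240 and 2230. These ratios carry a pseudocount of 1 and rest on few reads for members near 0.

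**Figure D5:**
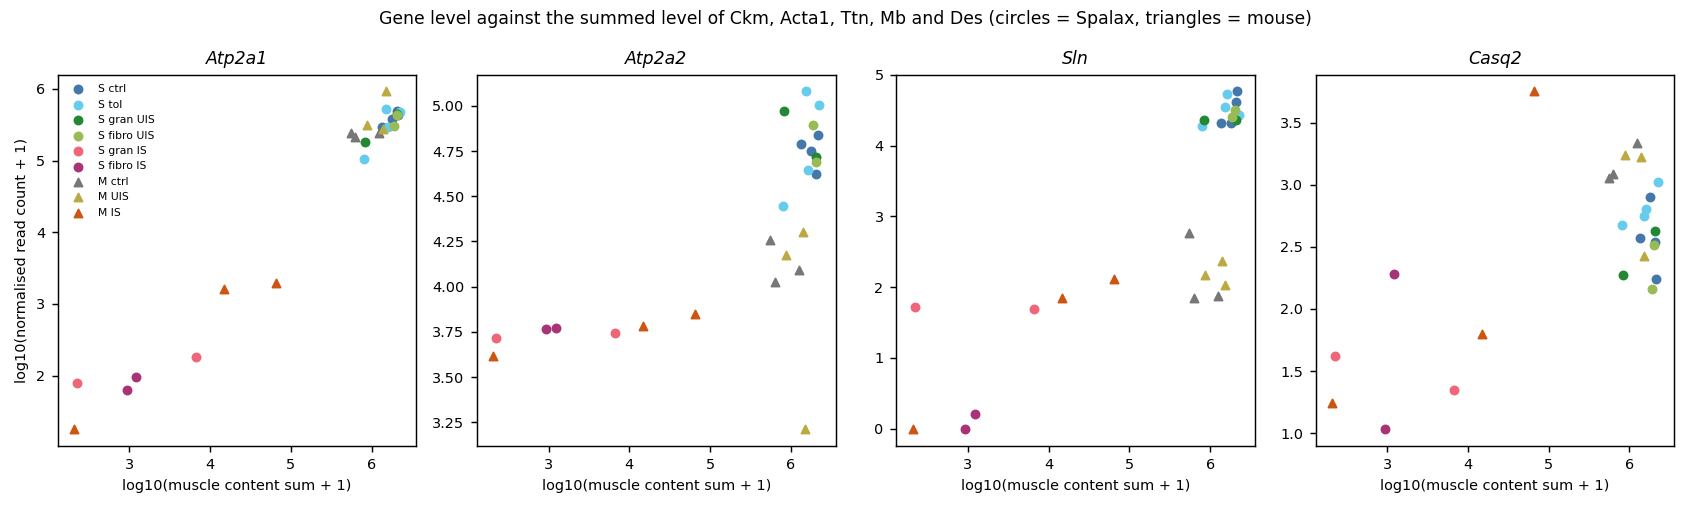
Levels of Atp2a1, Atp2a2, Sln and Casq2 against muscle content, the sum of Ckm, Acta1, Ttn, Mb and Des, both as log10(value + 1), 1 point per library. Atp2a1 is high where muscle content is high and low in the 7 tumors. Atp2a2 stays between 4153 and 7081 in the 7 tumors, over a range of muscle content from 206 to 65379.

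Among the 12 Spalax muscle libraries the Pearson correlation of log2 levels between members ranged from -0.19 (Casq1 and Atp2a2) to 0.95 (Casq1 and Pvalb). It was 0.90 between Casq1 and Srl, 0.82 between Atp2a1 and Srl, 0.76 between Ryr1 and Cacna1s, 0.70 between Cacna1s and Srl and 0.69 between Atp2a1 and Cacna1s. The libraries share tissue composition, and UIS 976 lies at the end of several of these scatters, so the values are a description. By the same measure the genes most like Pvalb were Jph2, which holds the store membrane to the surface tubules (0.98), Nudt3 (0.97) and Rhoq (0.97). Those most like Atp2a2 were Kremen2 (0.92), the slow myosin Myh7 (0.90) and Myom2 (0.90). For Sln they were Apobec2 (0.86), Ift46 (0.85) and Alkbh7 (0.85). Over the 6 mouse muscle libraries Pln was most like Tob1, Cela1 and Tcf24 (0.99 each), Sln most like Glt28d2 (0.97), Zfp651 (0.93) and N4bp2os (0.92), Pvalb most like Mad2l1bp (0.99), Wbscr22 (0.98) and Sssca1 (0.98), and Atp2a2 most like Tmem106c, Banp and Lman2l (1.00 each). In mouse Atp2a1 and Atp2a2 stood at -0.91 and Ryr1 and Cacna1s at 0.97, over few libraries and with UIS 512 far from the rest.

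The partners of these genes in excitation-contraction coupling, which build the junction between surface tubules and store, were lower in the tumors as a rule. Of 16 such genes 13 fell in granuloma IS, 15 in Spalax fibrosarcoma IS and 13 in mouse IS, and 0 rose. Over all genes tested, 12.6%, 19.0% and 22.3% were called lower in these comparisons and 11.7%, 17.4% and 22.8% higher. The largest fall was that of Hrc, a store protein that binds calcium, in granuloma (-10.39 ± 0.97 SE), that of Sypl2, a junction membrane protein, in Spalax fibrosarcoma (-12.52 ± 0.61 SE), and that of Trdn, which anchors calsequestrin to the release channel, in mouse (-9.16 ± 2.09 SE). The smallest falls among those called were Asph in both Spalax tumors (-1.75 and -2.32). The medians were -6.85, -9.23 and -4.85.

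Other channels, pumps and binders of calcium stores did not share this direction. In granuloma 1 of 15 tested rose and 5 fell, in Spalax fibrosarcoma 4 rose and 5 fell, and in mouse 3 rose and 3 fell. The shares called in either direction over all genes were 24.3%, 36.3% and 45.1%, and the mouse count of 6 of 15 was below its share. Calr, the calcium-binding chaperone of the endoplasmic reticulum, rose in granuloma (2.17 ± 0.38 SE), in Spalax fibrosarcoma (2.10 ± 0.25 SE) and in mouse (1.27 ± 0.27 SE), where Itpr3, an inositol trisphosphate receptor, showed the highest rise of the list (1.77 ± 0.41 SE). Calr read 24161 and 19487 in granuloma IS, 18974 and 16150 in Spalax fibrosarcoma IS and 9087 to 14188 in mouse IS, all above the muscle libraries of the same species (at most 8101 in Spalax and 5560.1 in mouse). Slc8a3, a sodium-calcium exchanger of muscle and nerve, showed the largest fall in all 3 (-8.68 ± 0.84, -10.09 ± 0.59 and -5.53 ± 0.61 SE). The sum over this list was 36499.8 to 43375 in the Spalax tumors and 25512 to 34816 in Spalax muscle. In mouse the ranges overlapped, at 28421 to 32156 in tumors and 21385 to 30885 in muscle.

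Of the 5 genes of mitochondrial calcium uptake, 2 fell in granuloma, 3 in Spalax fibrosarcoma and 2 in mouse, and 0 rose, where 12.6%, 19.0% and 22.3% of all genes fell. The channel subunit Mcu fell most in granuloma (-2.59 ± 0.38 SE) and Spalax fibrosarcoma (-2.07 ± 0.23 SE) and was at -0.04 ± 0.43 (SE) in mouse, where Smdt1, a regulator of that channel, fell most (-1.84 ± 0.27 SE). Of 9 genes of the calcineurin pathway, the calcium-dependent phosphatase and its targets, 2 fell in granuloma, 5 in Spalax fibrosarcoma and 6 in mouse. In granuloma the 3 of 9 called in either direction stood near the 24.3% of all genes. Nfatc4, a transcription factor of that pathway, was the single one to rise in each (3.88 ± 0.67, 1.56 ± 0.34 and 2.21 ± 0.54 SE). Rcan2, a calcineurin inhibitor, fell most in granuloma (-3.12 ± 0.73 SE) and mouse (-4.42 ± 0.92 SE), and Nfatc1 in Spalax fibrosarcoma (-3.0 ± 0.24 SE). None of the genes of these 4 lists was called by limma between control and other muscle in Spalax or mouse, nor between the 2 kinds of Spalax tumor. In these comparisons limma called 0% of all genes (of 13909, 14020, 14792 and 14562), so the absence of calls is not particular to the lists. Between the species, 1 gene of the 4 lists (16, 15, 5 and 9 tested) was called, where 3.95% of all 11262 genes tested were called. It was Slc8a3, which fell by 4.56 ± 0.95 (SE) more in Spalax fibrosarcoma on the log2 scale.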

How the data were processed

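Gene expression was measured by RNA-seq of muscle and tumor tissue. Per the labels and the methods of the study, stranded libraries were read for 101 cycles, trimmed with Trimmomatic, aligned with TopHat2 (the submitters' processing notes list TopHat 1.4.1 and GRCm38) and counted per gene with htseq-count; the strand setting of the counting is not given in the sources used here. Deposited is a signal: for each gene, the authors' read count over the size factor of its library. Each species has a table. Within a library, 100% of the values were whole multiples of the value of 1 read, within 0.001 of a read, so reads were recovered by division and gave the depth of each library.

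The main test was limma 3.58.1 (lmFit, eBayes with trend) in R 4.3.3 on log2(value + 1). Genes entered with a value of at least 10 in a number of libraries equal to the size of the smaller group. Adjusted p-values (Benjamini-Hochberg) run over all genes tested and genes at most at 0.05 are called. The design had named this test for a normalised unit. Alternatives were edgeR 4.0.16 and DESeq2 1.42.0 on recovered reads, a pseudocount of 10, no filter, scaling by total reads, 1 model per species, the animal as a block and leaving out each library. A fit without both libraries of mouse 512 was added after seeing the data. Log2 ratios of 2 genes were compared by exact two-sided permutation tests, adjusted over 6. The script was tested on simulated data. The pairing comes from the animal number that IS and UIS libraries share. Their deviations from the group means correlated at 0.01, 0 and 0.05 to 0.18 in granuloma, Spalax fibrosarcoma and mouse.

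The members and gene lists were chosen with earlier results of these data known. Named genes are the members, the 3 genes most correlated with Atp2a2, Sln, Pln and Pvalb over muscle libraries, and the highest rise and largest fall in each pathway list; Asph, the value of Mcu in mouse and the correlations between members were picked after their values were seen. Commas in Spalax gene names were read as t (2387 names). Figures were drawn with matplotlib 3.10.9.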

Additional observations from a re-analysis of the deposited data

Results flagged for a closer look

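The change of Sln from UIS to IS in Spalax fibrosarcoma minus that in mouse was -11.56 on the log2 scale (UIS 25592 and 31376 against IS 0 and 0.6 in Spalax, UIS 236, 146 and 107 against IS 0, 69.4 and 128 in mouse). An interaction term of limma over the genes shared by both tables drew attention to it. Over the fits that left out 1 library the difference was between -13.75 and -10.24, but it was called in 1 of these 10 fits. It was not called with the animal as a block or without both libraries of mouse 512 either. A fall to 0 from the UIS levels amounts to at most 7.89 in mouse, against 14.64 and 14.94 in Spalax.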

How the results depend on the processing

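Precision is limited by 2 to 4 libraries per group, and members near 0 rest on single reads. With DESeq2, 1 member was called between Spalax control and UIS (516 of 13909 genes). Between fibrosarcoma IS and granuloma IS 1 member was called (153 of 14562 genes), also 1 in 1 limma model over all Spalax libraries (19 genes). Between the species DESeq2 called 4 members (1751 of 11262 genes). With the animal as a block, the members called were 9 in granuloma, 8 in Spalax fibrosarcoma, 7 in mouse and 0 between the species. Over all genes, these fits called 3108 of 14735, 4886 of 14696, 6707 of 15220 and 58 of 11262. Leaving out 1 library gave 2 to 5 members in granuloma, 0 to 9 in Spalax fibrosarcoma and 0 to 6 between the species, and the ratio Casq1 to Casq2 ranged from -0.83 to 0.63 (Spalax UIS) and -0.22 to 1.10 (mouse), and Atp2a1 to Atp2a2 from -0.06 to 2.62 (mouse). Signs of log2 changes that were not called turned in these cases. With edgeR and DESeq2, Srl in Spalax UIS was 0.15 and 0.16, Casq2 in mouse IS 0.64 and 0.58, Sln in mouse UIS -0.56 and -0.54, and Casq2 between the species -1.86 and -1.82. Scaled by total reads, Sln was 0.09 in tolerant and -0.17 in mouse UIS, Atp2a2 0.58 in mouse IS, and Casq2 between the species -0.20. Leaving out 1 library gave ranges across 0: in Spalax UIS -1.36 to 0.21 (Casq1), -2.41 to 0.35 (Pvalb) and -0.32 to 0.47 (Srl); in tolerant -0.12 to 0.32 (Ryr1), -0.69 to 0.08 (Atp2a1), -0.17 to 0.53 (Atp2a2), -0.28 to 0.27 (Sln) and -0.46 to 0.08 (Cacna1s); in mouse IS -1.63 to 0.18 (Atp2a2); in mouse UIS -0.72 to 0.14 (Casq1), -1.10 to 0.25 (Casq2), -1.43 to 0.38 (Atp2a2), -0.43 to 1.10 (Sln) and -0.61 to 0.19 (Pln); between Spalax tumors -4.80 to 0.14 (Ryr1), -3.60 to 0.52 (Casq1), -1.48 to 2.67 (Casq2) and -2.85 to 1.45 (Srl); and between the species -2.01 to 2.54 (Casq2). The cause was not tested.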
